A study of Homo sapiens with 2 samples.

Results

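A skipping junction joins the end of one exon to the start of the exon after next and so leaves out the exon between them. The junctions described here leave out 1 exon each and had no support in the authors' annotation, with 0 Ensembl transcripts, 0 human mRNAs and 0 human ESTs behind them. They were kept at 20 or more junction reads over both libraries, in genes with at least 200 gene reads over both. These minima left 488 unannotated single-exon skipping junctions in 464 genes, out of 2211260 annotated or constructed junctions, of which 107278 of any kind passed the same minima. The rule uses no ratio between the lines, though it was set with earlier results of these data known. Since the minimum is over both libraries, a junction with 0 reads in 1 line passed it through the other line alone. Each of the 488 junctions skips a different exon.

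The study sequenced polyadenylated RNA of MIP/5FU and of MIP101, 1 library per line, to look for alternative expression of genes in a drug-resistant line. MIP/5FU is 1 clone of MIP101, picked after growth in increasing amounts of 5-fluorouracil (5-FU), a pyrimidine analog, and kept in 5 µM of it. Its IC50 for the drug is 10-fold higher. MIP101 is an established human line of colorectal cancer, from a metastasis in the liver, and is sensitive to 5-FU. For RNA, both lines were grown for about 48 hours in medium free of drug, so the 2 libraries differ in line and in drug history and not in drug at harvest. With 1 library and 1 clone per line, no difference below has a replicate check. The intervals cover counting error only, with each read taken as independent. The libraries were amplified by PCR and carry no molecular identifiers that would mark copies, so the intervals may be too narrow even for counting error.

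Exons are removed together with their flanking introns when the splice sites around them are passed over. An exon whose length is a multiple of 3 can be left out of a coding sequence without moving the reading frame, and the protein then lacks an internal stretch. Any other length shifts the frame, usually brings a stop codon soon after the join, and can expose the RNA to nonsense-mediated decay when that stop lies well before the last exon junction. Skipping forms under decay are seen at lower levels than they are made.

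Gene reads numbered 109693681 in MIP/5FU and 200141071 in MIP101, and junction reads 13022878 in MIP/5FU and 24925624 in MIP101. Both libraries carried the epithelial genes that the label calls for. KRT8 had 3844 reads per 1000000 gene reads (RPM) in MIP/5FU and 3309 RPM in MIP101, and CDX2, an intestinal transcription factor, 213.7 RPM in MIP/5FU and 238.3 RPM in MIP101. The markers of the intestinal epithelium were not all at like levels: KRT20, an intestinal keratin, had 19.36 RPM in MIP/5FU and 2.858 RPM in MIP101, and VIL1, the villin of microvilli, 53.38 RPM in MIP/5FU and 125 RPM in MIP101. Of the genes of other cell types, HBB and APOA1 had 0 reads in both libraries, ALB 68 reads in each, PTPRC 10 in MIP/5FU and 12 in MIP101, and CD3E 2 in MIP/5FU and 0 in MIP101. The share of all member reads that came from MIP/5FU was 35.4%, against 34.3% of all junction reads.

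The sequences below show reference bases at the joins and not bases of reads. They cover 5 of the junctions with 0 reads in 1 line and the pair with the largest differences after them. All come from GENCODE release 29 transcripts (GRCh38) of the same gene, matched by the lengths of the exon and of both introns, and each runs 5′ to 3′ over 31 bases of the upstream exon and 31 of the downstream exon. In the first set the skipped exon has a length that is a multiple of 3, and capitals mark the downstream exon.
OCIAD1 exon 4 to exon 6: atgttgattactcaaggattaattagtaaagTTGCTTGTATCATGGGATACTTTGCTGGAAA
TNRC6C exon 6 to exon 8: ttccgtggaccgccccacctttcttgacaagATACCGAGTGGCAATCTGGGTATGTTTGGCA

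In the second set the length is not a multiple of 3, the join lies after base 31, and capitals mark the new stop codon in the shifted frame.
AP2B1 exon 20 to exon 22: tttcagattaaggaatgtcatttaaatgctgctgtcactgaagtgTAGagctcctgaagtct
UBE2M exon 4 to exon 6: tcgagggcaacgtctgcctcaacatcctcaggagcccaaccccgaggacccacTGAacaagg
UBE2K exon 2 to exon 4: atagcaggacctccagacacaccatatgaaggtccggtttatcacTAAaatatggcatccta

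In DNTTIP1 and EIF4A2 the frame also shifts, but the new stop lies beyond the 31 bases, so capitals mark the downstream exon again.
DNTTIP1 exon 9 to exon 11: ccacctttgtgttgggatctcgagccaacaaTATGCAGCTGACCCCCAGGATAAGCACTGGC
EIF4A2 exon 9 to exon 11: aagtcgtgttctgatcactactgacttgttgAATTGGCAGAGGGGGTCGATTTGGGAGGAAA

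Nearly every unannotated skipping junction was seen in both lines. Of the 488, 482 had reads in both, 2 were seen in MIP/5FU alone and 4 in MIP101 alone. The 2 without reads in MIP101 were 0.41% of the unannotated skips, against 0.00373% of all junctions past the minima. The 4 without reads in MIP/5FU were 0.82%, against 0.0541% of all junctions, and for either line the background was 0.0578%. Since these carried a median of 30 reads and all junctions 155, the shares were also taken among junctions with 20 to 99 reads. There they were 0.437% of 458 unannotated skips against 0.0106% of 37642 junctions for 0 reads in MIP101, and 0.873% against 0.149% for 0 reads in MIP/5FU. Single-exon skips in Ensembl transcripts had 0 reads in MIP101 in 0 of 3626 cases and 0 reads in MIP/5FU in 3, or 0.0827%, and none of the 703 skips known from mRNAs or ESTs alone lacked reads in a line. A total of 472 members had at least 3 reads in each line and 453 at least 5. A further 8 had 1 or 2 reads in MIP/5FU, and 2, in UBE2M and BUD31, had 1 or 2 in MIP101.

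**Figure D1:**
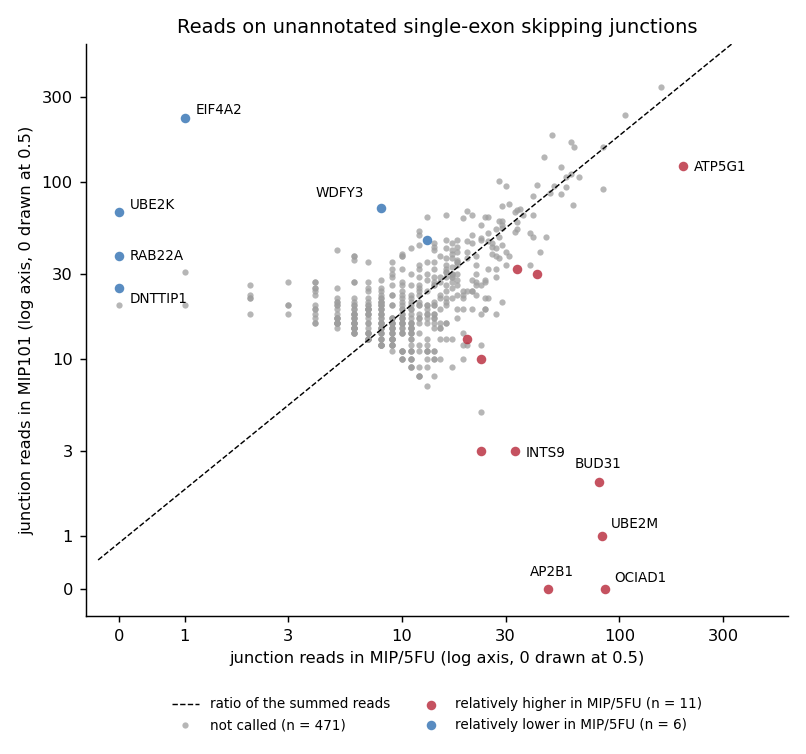
Reads on each of the 488 unannotated single-exon skipping junctions in MIP/5FU (x axis) and in MIP101 (y axis), on log axes with 0 drawn at 0.5; the dashed line is the ratio of the summed reads. Most points follow the line, with 11 red points relatively higher and 6 blue points relatively lower in MIP/5FU, and 6 points on an axis at 0 reads.

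The MIP/5FU junctions without reads in the parent were in OCIAD1 and AP2B1. OCIAD1 encodes an OCIA domain membrane protein, and its skip of exon 5 (chr4:48539463-48546721 on hg18, gene ENSG00000109180) had 86 reads in MIP/5FU and 0 in MIP101. From the reads of the gene in each library, 303 reads would have matched the MIP/5FU rate in MIP101. The junctions into and out of exon 5 had 80 and 98 reads in MIP/5FU against 644 and 709 in MIP101. The skipping share, defined as skipping reads over skipping reads plus the mean of the 2 inclusion junctions, was 49.1% in MIP/5FU (95% Clopper-Pearson interval 41.5 to 56.8), while 0 reads in MIP101 allow a share of up to 0.443%, taken here and below as 3 reads over the informative reads seen in that line, which are the mean of its inclusion junctions. Exon 5 has 48 bases, all coding, and without it the protein of 245 codons would have 229. The gene itself stood at 68.9 RPM in MIP/5FU and 133 RPM in MIP101.

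AP2B1 encodes the beta subunit of the AP-2 adaptor that links cargo to clathrin at the plasma membrane. Its skip of exon 21 (chr17:31061452-31074757) had 47 reads in MIP/5FU and 0 in MIP101, where 87.3 would have matched. The share was 14.1% in MIP/5FU (10.6 to 18.3), and 0 reads in MIP101 allow up to 0.508%. Exon 21 has 155 bases, and in the skipped form the reading frame ends at the stop shown above, with 880 codons in place of 951. That stop lies in the last exon, 17 bases past the last junction.

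The 4 junctions with 0 reads in MIP/5FU were in UBE2K, RAB22A, DNTTIP1 and TNRC6C. UBE2K, a ubiquitin-conjugating enzyme, had 0 reads in MIP/5FU and 67 in MIP101 on the skip of exon 3, where 42.3 reads would have matched the MIP101 rate. The 0 reads in MIP/5FU allow a share of up to 1.19%, and the share was 17.5% in MIP101 (13.8 to 21.7). The exon has 59 bases, and the shifted frame ends after 57 codons of 200, with the stop 295 bases before the last junction. RAB22A, a small GTPase of endosomes, had 0 reads in MIP/5FU and 38 in MIP101 on the skip of exon 4, where 24.5 reads were expected in MIP/5FU. The limit on its share was 4.88% in MIP/5FU, against a share of 47.2% in MIP101 (36.2 to 59.0). Exon 4 has 72 bases and encodes 24 of 194 codons.

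DNTTIP1, a subunit of a histone deacetylase complex, had 0 reads in MIP/5FU and 25 in MIP101 on the skip of exon 10 (chr20:43867250-43871160). The reads expected in MIP/5FU were 13.5. The limit on its share was 2.80% in MIP/5FU, against a share of 11.4% in MIP101 (7.53 to 16.4). The exon has 61 bases, and the stop of the shifted frame lies in the last exon. TNRC6C, which binds Argonaute proteins in silencing by microRNAs, had 0 reads in MIP/5FU and 20 in MIP101 on the skip of exon 7. The gene was lower in MIP/5FU, at 49.96 RPM against 154 RPM in MIP101, so that 3.56 reads were expected in MIP/5FU and the limit on its share there was 12.8%, above the 11.02% of MIP101. A difference in this junction was therefore not detectable at this depth. The other unannotated skip of TNRC6C, of exon 2, had 12 reads in MIP/5FU and 53 in MIP101, with shares of 47.1% in MIP/5FU and 45.9% in MIP101.

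Relative to their genes, few members differed. The splicing index takes the log2 ratio of junction reads, MIP/5FU over MIP101, and subtracts that of gene reads, with 0.5 reads added to each junction count for the point value. A junction was called at an index of at least 1 in either direction, with an exact interval excluding 0 that leaves 0.1% outside. Of the 488, 11 were called higher in MIP/5FU and 6 lower, or 2.25% and 1.23%, against 0.0569% and 0.0997% of all junctions tested, or 0.157% in either direction. Most of that background is not skipping, since 100139 of the 107278 junctions past the minima skip no exon. Over the 424 members with at least 50 of 62 junction bases covered, the shares were 2.59% and 1.42%. At 20 to 99 reads these shares were 2.18% and 1.09% of the members against 0.13% and 0.17% of all junctions. Skips in Ensembl transcripts were called higher in 0.165% and lower in 0.303% of cases, and skips with mRNA or EST support higher in 0.569% and lower in 1.14%. The median index of the members was 0.03, with 5th and 95th percentiles of -1.27 and 1.26, against -0.05, -0.62 and 0.50 over all tested junctions. In all, 82.6% of the members lay within 1 of 0. The members carried a median of 30 reads and all junctions 155, and a spread at like reads was not taken. How far the lower counts account for the wider spread of the members was therefore not tested.

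Beside OCIAD1 and AP2B1, the called junctions that were higher in MIP/5FU were in UBE2M, BUD31, INTS9, SLC4A2, KIF23, POLR2B, CAD, ROD1 and ATP5G1. UBE2M, which conjugates NEDD8 to cullins, had 83 reads in MIP/5FU and 1 in MIP101 on the skip of exon 5. Its share was 15.9% in MIP/5FU (12.8 to 19.3) and 0.0966% in MIP101 (0.00245 to 0.537). BUD31, a component of the spliceosome, had 81 reads in MIP/5FU and 2 in MIP101 on the skip of exon 2, with shares of 28.5% in MIP/5FU (23.3 to 34.0) and 0.414% in MIP101 (0.0502 to 1.49). The junctions into and out of its exon 2 were uneven, with 294 and 113 reads in MIP/5FU and 698 and 264 in MIP101. That exon, of 136 bases, is not all coding in the files.

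INTS9, a subunit of the Integrator complex that cleaves small nuclear RNA precursors, had 33 reads in MIP/5FU and 3 in MIP101 on the skip of exon 9, an index of 4.37 (2.11 to 8.98). Its share was 46.5% in MIP/5FU (34.5 to 58.7) and 2.21% in MIP101 (0.461 to 6.36). The exon has 135 bases and encodes 45 of 658 codons. SLC4A2, a chloride-bicarbonate exchanger, had 23 reads in MIP/5FU and 3 in MIP101 on the skip of exon 15, an index of 3.40 (1.03 to 8.03), with shares of 10.1% in MIP/5FU and 0.866% in MIP101. KIF23, a kinesin of the central spindle in cytokinesis, had 23 reads in MIP/5FU and 10 in MIP101 on the skip of exon 22, an index of 2.52 (0.76 to 4.68), with shares of 20% in MIP/5FU and 3.50% in MIP101. POLR2B, a core subunit of RNA polymerase II, had 20 reads in MIP/5FU and 13 in MIP101 on the skip of exon 10, an index of 2.29 (0.55 to 4.21), with shares of 22.9% in MIP/5FU and 5.28% in MIP101. In both of the last genes the frame shifts, with a stop 49 bases before the last junction in KIF23 and 2323 bases before it in POLR2B.

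CAD, the enzyme of the first steps of pyrimidine synthesis, had 42 reads in MIP/5FU and 30 in MIP101 on the skip of exon 34. Its index was 1.44 (0.29 to 2.66), and its share 15.3% in MIP/5FU (11.3 to 20.1) and 5.67% in MIP101 (3.85 to 7.98). The exon has 102 bases and encodes 34 of 2225 codons. ROD1, now PTBP3, an RNA-binding repressor of exons, had 34 reads in MIP/5FU and 32 in MIP101 on the skip of exon 6, an index of 1.35 (0.13 to 2.58), with shares of 37.2% in MIP/5FU and 15.7% in MIP101. ATP5G1, now ATP5MC1, which encodes the c subunit of mitochondrial ATP synthase, had more reads than any other called junction, 196 in MIP/5FU and 123 in MIP101 on the skip of exon 2. Its index was 1.24 (0.69 to 1.81), and its share 36.5% (32.4 to 40.7) in MIP/5FU and 17.6% (14.9 to 20.7) in MIP101. The junction into exon 2 had 628 reads in MIP/5FU and 1057 in MIP101, and the one out of it 54 and 91. The share of ATP5G1 thus rests on the mean of 2 unlike counts, and its intervals do not cover that difference. CAD, ROD1 and ATP5G1 were the 3 higher calls closest to the threshold.

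EIF4A2, an RNA helicase of translation initiation, had the lowest index of the junctions with reads in both lines, with 1 read in MIP/5FU and 229 in MIP101 on the skip of exon 10. Its share was 0.113% in MIP/5FU (0.00287 to 0.631) and 17.4% in MIP101 (15.4 to 19.5). At the MIP101 rate, 146 reads would have been expected in MIP/5FU. The exon has 80 bases, and the shifted frame ends in the last exon after 352 codons of 408. RFC4, a subunit of the clamp loader of DNA replication, had 13 reads in MIP/5FU and 47 in MIP101 on the skip of exon 9. Its index was -1.86 (-3.65 to -0.47), and its share 5.38% in MIP/5FU (2.90 to 9.05) and 19.8% in MIP101 (15.0 to 25.5). RFC4 as a gene stood at 123 RPM in MIP/5FU and 64.97 RPM in MIP101. WDFY3, a scaffold protein of selective autophagy, had 8 reads in MIP/5FU and 71 in MIP101 on the skip of exon 15, an index of -1.80 (-4.13 to -0.27). Its share was 44.4% in MIP/5FU (21.5 to 69.2) and 85.0% in MIP101 (76.1 to 92.3), where the skip was the more frequent form. Exon 15 of WDFY3 has 84 bases and exon 9 of RFC4 81 bases, both multiples of 3.

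**Figure D2:**
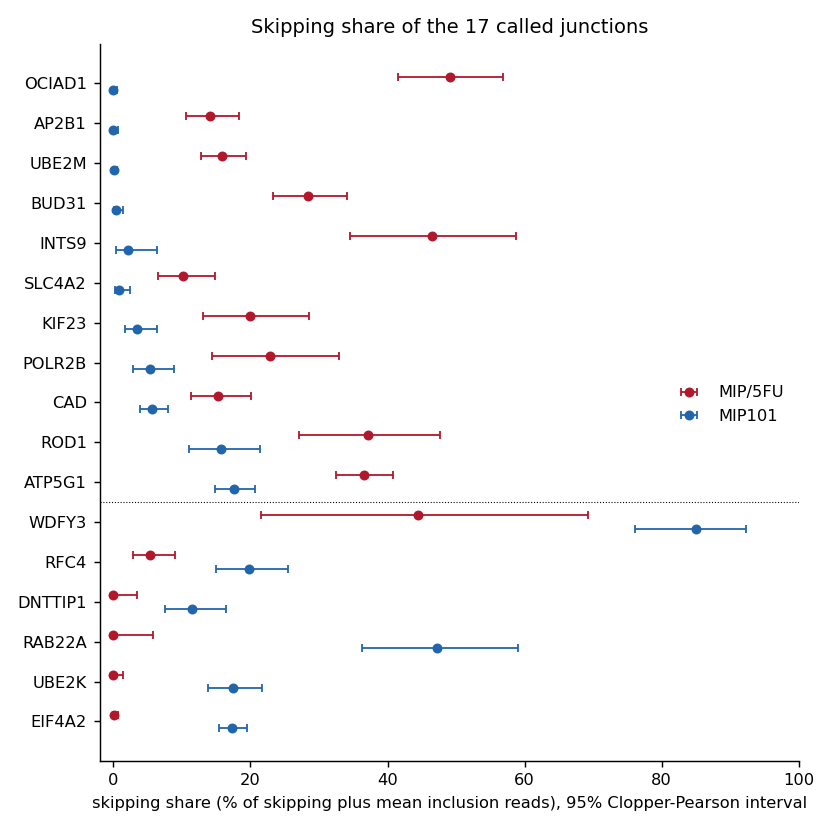
Skipping share with its 95% Clopper-Pearson interval in MIP/5FU (red, upper point) and MIP101 (blue, lower point) for the 17 called junctions, ordered by splicing index, with the 11 higher in MIP/5FU above the dotted line. The 2 intervals of a junction lie apart in all 17, and the shares span 0% to 85.0%.

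The inclusion junctions and the exon itself were not used by the rule or by the calls, and they give a second reading of the same event. In 16 of the 17 called members both inclusion junctions could be tested, and in 14 of those both had an index on the other side of 0 from the skip. CAD and DNTTIP1 were the exceptions. Among uncalled members with both junctions tested, both lay opposite to the skip in 135 of 404, or 33.4%. Skipping and inclusion reads draw on the same gene total, and several of these indices are small. An opposite index of at least 1 with its interval excluding 0 was reached in OCIAD1 and RAB22A. In OCIAD1 the inclusion junctions had indices of -1.18 and -1.03, and exon 5 had 145 read equivalents in MIP/5FU and 1076 in MIP101, an index of -1.07. In RAB22A they had 1.21 and 1.12, and exon 4 had 152 read equivalents in MIP/5FU and 118 in MIP101, an index of 0.99. In INTS9 the inclusion junctions had -0.82 and -0.54 and the exon -0.69, and in EIF4A2 the inclusion junctions had 0.60 and 0.01 and the exon 0.28. In AP2B1, UBE2M and BUD31, whose shares in MIP/5FU were below 30%, the inclusion junctions lay between -0.37 and -0.09.

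Set against the sum of both inclusion junctions in place of the gene, 18 members were called higher in MIP/5FU and 13 lower, and these hold all 17 above. Of the 14 that were added, C4orf14 (now NOA1, a mitochondrial GTPase) had 84 reads in MIP/5FU and 157 in MIP101 and shares of 68.6% in MIP/5FU and 51.8% in MIP101. SMC4, a core subunit of condensin, had 49 reads in MIP/5FU and 184 in MIP101 and shares of 18.4% in MIP/5FU and 34.4% in MIP101, an index against inclusion of -1.21 (-2.04 to -0.47). WNK1, a kinase that controls ion cotransporters, had 29 reads in MIP/5FU and 73 in MIP101 and shares of 96.7% in MIP/5FU and 85.9% in MIP101. In WNK1, KIAA1797, AC087749.12, SHROOM1 and AC022137.6, 1 inclusion junction had 0 reads in at least 1 line, so their indices rest on few inclusion reads.

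Most unannotated skips were minor forms at like levels in both lines. The median skipping share was 10.1% in MIP/5FU over 469 members with at least 10 informative reads and 10.3% in MIP101 over 474. In 105 members the share was under 5% in both lines, in 22 under 1%, and in 35 at least 50%. Over the 468 members with a share in each line, Spearman's rho between the lines was 0.85, a description of 2 libraries that went through the same protocol. The median difference, MIP/5FU minus MIP101, was 0.0615 percentage points, and 68 members differed by more than 10 points and 12 by more than 20. The intervals of the 2 lines lay apart in 32 members, of which 17 are the called members.

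**Figure D3:**
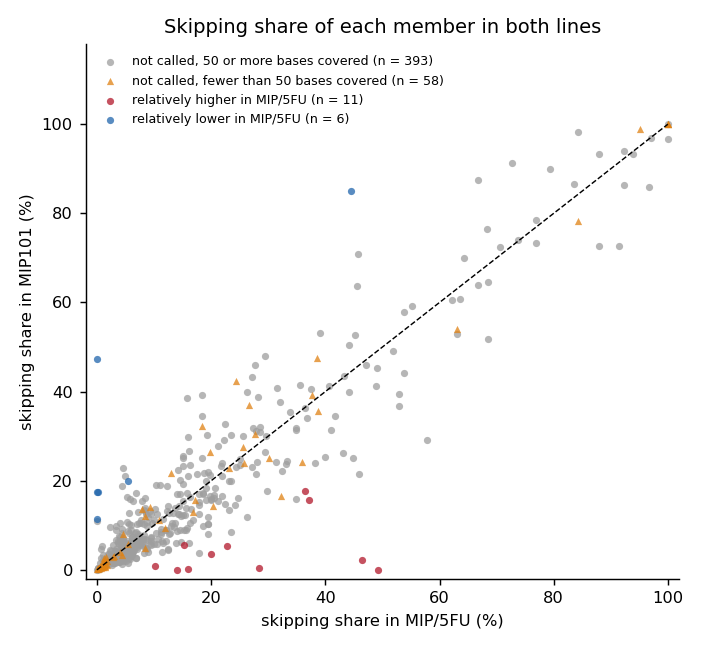
Skipping share of the 468 members with a share in both lines, MIP/5FU on the x axis and MIP101 on the y axis, both in percent, with equality as the dashed line. Uncalled members, drawn as triangles where fewer than 50 junction bases were covered, scatter around the line, and the called members lie off it.

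Of the 10 members with the most reads, only EIF4A2 was nearly absent from a line. GDI2, which recycles Rab GTPases, had 155 reads in MIP/5FU and 345 in MIP101 on the skip of exon 13, and shares of 21.8% in MIP/5FU and 23.3% in MIP101. Its exon has 55 bases, and the shifted frame ends in the last exon. BMS1, a GTPase of ribosome assembly, had 60 reads in MIP/5FU and 167 in MIP101 on the skip of exon 11, of 102 bases, with shares of 45.3% in MIP/5FU and 52.8% in MIP101. HNRNPH1, a splicing regulator, had 62 reads in MIP/5FU and 158 in MIP101 on the skip of exon 10, of 90 bases, with shares of 8.76% in MIP/5FU and 9.76% in MIP101.

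A few exons were skipped in most of the reads around them in both lines. Among the members with at least 50 bases covered, KIF1B, a kinesin of organelle transport, had 50 reads in MIP/5FU and 94 in MIP101 on the skip of exon 32 and shares of 97.1% in MIP/5FU (86.8 to 99.5) and 96.9% in MIP101 (91.2 to 99.4). The exon has 249 bases and encodes 83 of 1823 codons, and the junctions into and out of it had 2 and 1 reads in MIP/5FU and 3 and 3 in MIP101. KIF1B has the junction in mRNAs or ESTs of 5 other species in the files. SAMD4B, an RNA-binding protein, had 11 reads in MIP/5FU and 30 in MIP101, with shares of 100% in MIP/5FU and 96.8% in MIP101 and an exon of 558 bases that is not all coding. Of the 35 members at 50% or more in both lines, 29 had at least 50 bases covered and 12 had at least 10 reads on each inclusion junction. PPIA, PTPRA, RAI1, USP6 and AL603832.28 were the 5 members with 0 reads on both inclusion junctions in both lines, so the included form was not seen there at this depth. All of these but PPIA were covered over fewer than 50 junction bases. Of the 21 members at 50% or more in both lines whose exon is all coding, 15 had a length that is a multiple of 3.

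The skipped exons kept the frame more often than coding exons at large. The skipped exon had a length for 481 members, with a median of 117 bases and a range of 5 to 3381. Of 439 skipped exons that are all coding, 269 had a length that is a multiple of 3, or 61.3% (95% Clopper-Pearson interval 56.5 to 65.9), and the lengths with a remainder of 1 and of 2 numbered 85 each. Among 115766 internal coding exons of genes with at least 200 reads the share was 40.4%. It was 60.98% (59.0 to 62.9) among 2504 exons skipped in Ensembl transcripts and 47.9% (43.7 to 52.0) among 585 exons whose skip is known from mRNAs or ESTs alone. The interval of the unannotated skips thus overlaps that of the Ensembl skips and lies above that of the mRNA and EST skips and above the value of all internal exons. The exons share genes and read minima, so these intervals describe counting over exons and not replicates.

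**Figure D4:**
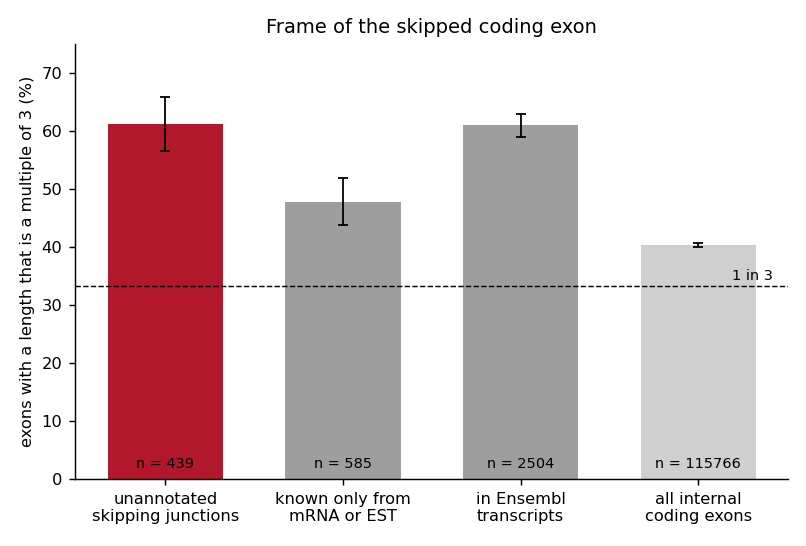
Percentage of coding exons with a length that is a multiple of 3 among exons skipped by unannotated junctions (red), by junctions known from mRNA or EST alone, by junctions in Ensembl transcripts, and among all internal coding exons, with 95% Clopper-Pearson intervals; the dashed line marks 1 in 3. The 4 bars stand at 61.3%, 47.9%, 60.98% and 40.4%.

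The frame share was lower at a lower read minimum, while the intervals taken for the other subsets overlapped that of all members. At a minimum of 10 junction reads it was 52.7% (49.95 to 55.4), below the interval at 20 reads, and at 50 reads 61.7% (51.1 to 71.5). It was 68.7% (56.2 to 79.4) in the 67 coding exons of members with a skipping share of at least 25% in both lines. In the 100 coding exons with a share under 5% in both it was 61% (50.7 to 70.6). Among the called members 7 of 15 coding exons were in frame, or 46.7% (21.3 to 73.4), and 3 of the 6 with 0 reads in a line. Exons in frame had median skipping shares of 10.4% in MIP/5FU and 9.93% in MIP101, and the others 7.84% in MIP/5FU and 8.03% in MIP101.

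The reading frame could be followed in a GENCODE transcript for 396 of the exons. Of the 243 with a length that is a multiple of 3, 242 kept their own stop codon and lost a median of 40 codons, from 12 to 1127, or 5.4% of the protein in the median. The exception was the skip of exon 8 of DPAGT1, the enzyme that starts N-linked glycan synthesis, named after its value was seen. There the join itself forms a stop, and 242 codons of 408 are read in spite of an exon of 189 bases. Of the 153 exons of other lengths, 103 gave a stop more than 50 bases before the last junction, where decay can act, and 50 did not. In these 153 a median of 12 codons was read past the join. Median skipping shares were 8.17% in MIP/5FU and 8.23% in MIP101 for the 103, against 9.52% in MIP/5FU and 8.86% in MIP101 for all other exons followed. Decay was not measured in these cells.

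The reads of the unannotated skips covered less of the join than those of other junctions. Each junction feature has 62 bases, 31 on each side, and the authors counted how many were covered by at least 1 read. In 64 members, or 13.1%, the reads covered fewer than 50 bases even in the better covered library, against 0.946% of all junctions, 0.91% of Ensembl skips, 0.711% of mRNA and EST skips and 0.282% of junctions that skip no exon. Among junctions with 20 to 29 reads the figures were 11.6% of 233 members, 1.33% of 450 Ensembl skips, 0.377% of 265 mRNA and EST skips and 1.40% of 5495 junctions that skip no exon. In 54 members the covered stretch was 35 to 38 bases, about 1 read long, and reads averaged 35.6 bases on the junction in the narrow members and 39.5 in the others. The value of 50 bases was chosen after the distribution was seen.

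**Figure D5:**
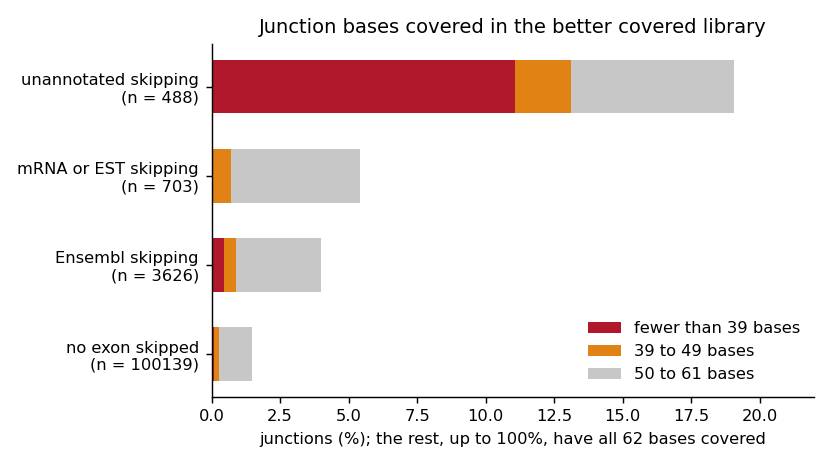
Percentage of junctions whose reads covered fewer than 39, 39 to 49 or 50 to 61 of the 62 junction bases, for unannotated skips, mRNA or EST skips, Ensembl skips and junctions that skip no exon. Below 50 bases lie 13.1% of unannotated skips and under 1% of each other class.

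The narrow members include some of those with the most reads. HNRNPH3, a splicing regulator, had 106 reads in MIP/5FU and 237 in MIP101 on the skip of exon 5, all within 36 bases, and shares of 23.1% in MIP/5FU and 22.8% in MIP101. The start of the skipped exon and the start of the exon after it, shown for the first 30 bases from GENCODE release 29, have 7 of the first 10 bases in common.
HNRNPH3 start of exon 5: gttatggaggttttgatgactatggtggct
HNRNPH3 start of exon 6: gtatgggaggacatggctatggtggagctg

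BUB3, a spindle checkpoint protein, had 45 reads in MIP/5FU and 138 in MIP101 within 35 bases, and CTTN, an actin-binding protein, 54 in MIP/5FU and 121 in MIP101 within 35 bases. The first 10 bases of the skipped exon were compared with the first 10 of the exon after it. Its last 10 bases were compared with the last 10 of the exon before it. At least 6 of 10 were the same at the start or the end in 35% of 40 narrow members that matched a transcript and in 11.7% of 393 others. How far misplaced reads from included transcripts enter these counts was not tested. None of the 17 called members was narrow, and none of the 6 with 0 reads in a line. Without the 64 narrow members the frame share was 61.7% over 386 exons, and the counts of calls stayed at 11 and 6.

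A later annotation holds part of these junctions. Of 433 members matched to GENCODE release 29, 92, or 21.2% (17.5 to 25.4), had the same skip in at least 1 transcript. The share was 84.7% for the mRNA and EST skips and 99.5% for the Ensembl skips. The skip was in a protein-coding transcript in 56 of the 92, in transcripts of nonsense-mediated decay but no protein-coding one in 18, and in other transcript types in 18. All 17 called members matched, and 3 had the skip in release 29, those of INTS9, RFC4 and WDFY3. The junctions with 0 reads in a line were in none of its transcripts. In the authors' files 90 members, or 18.4% (15.1 to 22.2), had the junction in mRNAs or ESTs of another species, against 45.4% of Ensembl skips and 28.7% of mRNA and EST skips.

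Every window of 36 bases across the join, with at least 4 bases on each side of it, was also looked for in all release 29 transcripts, on both strands. At least 1 window lay in a transcript of the member's own gene in 110 cases and in a transcript of another gene in 12. A read within such a shared window cannot be told apart from the other gene. Whether other windows or longer reads on these 12 junctions separate the genes was not tested. Of the 12, 5 were narrow. They include the skip of exon 11 of DBF4, with 36 reads in MIP/5FU and 65 in MIP101, with a window that lies in a processed pseudogene. The skip of exon 3 of ACTB, with 6 reads in MIP/5FU and 38 in MIP101, is also among the 12. Both were named after their values were seen. None of the 12 was called or had 0 reads in a line.

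More members were found in genes with more reads. The rule itself favours this order, since a minor form reaches 20 junction reads more readily in a gene with more reads. The genes with at least 200 reads and an internal exon numbered 11561, and they include 454 of the 464 member genes. Split into 4 equal groups by reads, they held a member in 0.0692%, 1.76%, 4.29% and 9.58% of cases, lowest group first. Among groups of genes that were listed by symbol with earlier results of these data known, members were found in 9.80% of 102 splicing factor genes, 9.21% of 76 respiratory chain genes, 8.78% of 148 ribosomal protein genes, 5.77% of 208 membrane traffic genes, 4% of 150 ubiquitin and proteasome genes, 3.13% of 224 solute carrier genes, 1.67% of 60 translation factor genes and 1.16% of 344 ZNF genes, against 3.93% of all 11561 genes. The translation factor genes had the highest median, 45828 reads, and only EIF4A2 among them had a member. The median was 38028 reads in the splicing factor genes, 29818.5 in the ribosomal protein genes and 28709 in the ubiquitin and proteasome genes. It was 19848.5 in the respiratory chain genes, 17275.5 in the membrane traffic genes, 7134 in the solute carrier genes and 3932 in the ZNF genes. Over all genes it was 10606. How far reads account for the differences between the lists was not tested.

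Of the 10 members in splicing factor genes, 4 were narrow, against 13.1% over all members. In frame were 5 of 8 coding exons, against 61.3%. With 3.48% called over all members, 0 calls among 10 do not set these genes apart. SFRS4, now SRSF4, had 17 reads in MIP/5FU and 37 in MIP101 on the skip of exon 5, of 90 bases, with shares of 9.52% in MIP/5FU and 12.6% in MIP101. HNRNPUL2 had 15 reads in MIP/5FU and 16 in MIP101, with shares of 7.75% in MIP/5FU and 5.62% in MIP101 and an exon of 74 bases. HNRNPH2 had 8 reads in MIP/5FU and 22 in MIP101 against 5332 and 818 inclusion reads in MIP/5FU and 9222 and 1339 in MIP101, so that its shares were 0.259% in MIP/5FU and 0.415% in MIP101. RBMS2, which the symbol rule placed in this list, had 5 reads in MIP/5FU and 25 in MIP101, with shares of 16.1% in MIP/5FU and 26.6% in MIP101. HNRNPUL1 had 17 reads in MIP/5FU and 41 in MIP101 and no share, since no inclusion junction pair was found. SFRS9, now SRSF9, had 12 reads in MIP/5FU and 24 in MIP101 within 37 bases.

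The 13 members of the ribosomal list, 2 of which are kinase genes that share the prefix RPS, had shares under 2% in the genes of cytosolic ribosomal proteins. Of the 13, 5 were narrow, against 13.1% over all members. RPL18 had 9 reads in MIP/5FU and 32 in MIP101 on the skip of exon 4, with shares of 0.146% in MIP/5FU and 0.291% in MIP101. Of the 8 respiratory chain members 5 had an all-coding exon, and 1 of these, in SDHC, was in frame, against 61.3% over all members. None of the 8 was narrow, and ATP5G1 was the 1 called. COX5A, a subunit of cytochrome c oxidase, had 15 reads in MIP/5FU and 27 in MIP101 and shares of 3.22% in MIP/5FU and 2.89% in MIP101. Of 13 membrane traffic members, 11 of 12 coding exons were in frame, the exception being AP2B1. In the ribosomal list 7 of 12 were in frame, in the splicing factor list 5 of 8 and in the solute carrier list 4 of 6. The ubiquitin and proteasome list had 3 of 5, the ZNF list 2 of 3 and the translation factor list 0 of 1. These counts are small, and whether the lists differ in frame was not tested. VPS35, the cargo-binding core of retromer, had 15 reads in MIP/5FU and 13 in MIP101 on the skip of exon 13, of 123 bases, with shares of 3.84% in MIP/5FU and 1.80% in MIP101.

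Several members in 1 gene were uncommon, with 46 members in 22 genes. HIATL1 (now MFSD14B) and C10orf18 (now TASOR2) had 3 each. The 3 skips of HIATL1, of exons 6, 7 and 10, had shares of 9.40%, 3.77% and 1.68% in MIP/5FU and 6.56%, 3.26% and 2.63% in MIP101, and no pair of intervals lay apart. Members skipped exon 2 in 45 cases and the exon before the last in 79.

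The threshold of 20 reads lies where such junctions are dense. Members with 20 reads numbered 31, among them ARFGAP3 (4 reads in MIP/5FU and 16 in MIP101), BMP2K (7 and 13 in these lines) and AL603832.28 (11 and 9 in these lines). Just outside, 36 unannotated single-exon skips had 19 reads, among them ABCC3 (9 reads in MIP/5FU and 10 in MIP101), AFG3L2 (11 and 8 in these lines) and ATPAF1 (7 and 12). In all, 950 had 10 to 19 reads.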

How the data were processed

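Per the labels, cDNA was primed with random hexamers, amplified by PCR and sequenced as paired reads, and no step marks the strand. The read counts per gene and junction are raw counts as the authors deposited them, placed on features built from Ensembl release 53 genes on hg18. No aligner is named; it is not given in the sources read. The authors deposited coverage for each feature, as summed bases and as a normalized mean per base, and the number of junction bases covered by at least 1 read. Exon regions carry coverage and no counts, so read equivalents were derived by dividing coverage by the mean bases of a read.

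Members were 1-exon skips with support counts of 0. A further 583 such rows give no support value, and the 1 of them with at least 20 reads was left out. The members and gene lists were chosen with earlier results of these data known. Splicing indices were computed over all junctions past the minima, with exact conditional binomial intervals, after the method was tested on simulated data. With 1 library per line there is no test of the lines. Exon lengths came from the coordinates of the inclusion junctions for 475 members and from exon regions for 6. For 7 no length was taken, because their exon numbers do not differ by 2, which departs from the planned use of exon regions. GENCODE release 29 transcripts on GRCh38 were matched by gene and by exon and intron lengths, with no conversion of coordinates. The sequence of 1 junction is not reported here.

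The junctions named were those with 0 reads in a line, the 10 with the most reads, the 8 highest skipping shares in each line, the 8 highest and 8 lowest called indices, up to 8 in splicing factor genes, and 3 on either side of the read minimum. CAD, ROD1, the exon 2 skip of TNRC6C, HIATL1, C10orf18, SHROOM1, AC022137.6, DPAGT1, DBF4, ACTB, RPL18, COX5A, SDHC and VPS35 fall outside it and were chosen after their values were seen. The alternatives on covered bases, sequence in another gene and inclusion reads were also added after the data were seen. Scripts ran under Python 3.11.15 with scipy 1.17.1, pandas 2.3.3 and numpy 2.4.6, and figures were drawn in matplotlib 3.10.9.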

Additional observations from a re-analysis of the deposited data

How the results depend on the processing

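At a minimum of 10 junction reads, 1416 unannotated skips had reads in both lines, 4 in MIP/5FU alone and 18 in MIP101 alone, and 52.7% of coding exons were in frame. At a minimum of 50 reads, 110 had reads in both lines, 1 in MIP/5FU alone and 1 in MIP101 alone, and 6 were called higher in MIP/5FU. Reading 2 or fewer reads as absence gave 4 in MIP/5FU alone and 12 in MIP101 alone. Against the sum of the inclusion junctions, 18 were called higher in MIP/5FU and 13 lower. With an index of at least 0.5 for the inclusion junctions and the exon, 4 members had an opposite readout, in place of 2. The change at minima of 10 and 50 reads follows in part from the number of junctions admitted, and the cause of the others was not tested.

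In the other 37 comparisons of a setting with the reported value, counts stayed within 1.5 times and shares within the interval or the quartiles of the reported value. No paired analysis was possible because each line has 1 library. Leaving out a replicate was likewise not possible. At 20 to 29 reads over both libraries, which holds 233 of the 488 members, the MIP/5FU count rests on few reads, and differences in genes lower in MIP/5FU were hardest to see.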

Other observations

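EIF4A2 and RFC4, both called lower in MIP/5FU, are neighbours on chromosome 3 on opposite strands, and the acceptors of their skipping junctions lie 1130 bases apart. The 22 members on chromosome 4 held 4 of the 17 called ones, and the 8 on chromosome 20 held 2, both lower in MIP/5FU, against 3.48% called over all 488. On chromosome 4, OCIAD1 and POLR2B were higher in MIP/5FU and UBE2K and WDFY3 lower. In HNRNPH1, 30 of the 31 bases upstream of the skipped exon recur within it, and at least 24 of 31 recurred in 3 of 433 members searched. The reads of the HNRNPH1 junction covered all 62 bases.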
